A study of Homo sapiens with 4 samples.

Results

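The transcripts of 10 nuclear genes that encode chaperones and proteases of mitochondria were examined in MHCC97H cells, an established human hepatocellular carcinoma (HCC) line, with and without knockdown of UBXN1. The genes were listed by name (HSPD1, HSPE1, HSPA9, GRPEL1, DNAJA3, TRAP1, LONP1, CLPP, CLPX and HTRA2), and each was 1 row of the deposited table of 61541 gene IDs. All 10 passed the filter on low counts that left 16863 genes for testing. The study asked how UBXN1, a cofactor of the segregase VCP with a ubiquitin-associated and a UBX domain, affects mitochondria in HCC cells. RNA was sequenced from 2 libraries of cells with a control shRNA (shCon) and 2 libraries of cells with a UBXN1 shRNA (shUBXN1). Both groups carried an shRNA vector, and all libraries came from the same line under the same labels for tissue and cell type. The labels do not say which UBXN1 shRNA was used, and the methods name shRFP as the control. Nothing in the labels says that replicates were separate cultures, so p-values measure the spread between these libraries, which may be technical.

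The libraries held 23373700 to 27380508 counts. UBXN1 itself, the check of the labels, was at 67.1 and 77.3 CPM (counts per 1000000, scaled with edgeR's TMM factors) in shCon and at 16.8 and 18.5 CPM in shUBXN1, a log2 fold change of -2.03 (standard error 0.0963). Counts from the mitochondrial genome made up 5.28% and 5.59% of the shCon libraries and 7.43% and 8.27% of the shUBXN1 libraries. Of 10 hepatocyte and hepatoma markers all had counts in every library, with KRT8 and KRT18 high in each, whereas APOA1 had only 11 to 22 counts. The largest falls were those of FGB, from 259 and 234 counts in shCon to 20 and 9 in shUBXN1, and of TTR, from 38 and 34 to 5 and 3. ALB was at 18.0 and 17.2 CPM in shCon and under 5 CPM in shUBXN1. At an adjusted p under 0.05, 6 of the 10 were called lower and 2 higher, beside 28.2% and 28.0% of all genes tested. The summed level of 4 endothelial markers was 47.2 and 48.3 CPM of total counts in shCon and 97.8 and 99.6 CPM in shUBXN1, most of it PECAM1 and KDR, while CDH5 had at most 6 counts in any library. The sums of 6 fibroblast markers were 1.48 to 3.63 CPM and those of 5 leukocyte markers 71.4 to 86.0 CPM, the latter nearly all CD68, with CD3E and MS4A1 at 0. The part of these shifts in the results below was not tested. In bulk RNA, fewer cells with a transcript and less of it per cell cannot be told apart.

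Most mitochondrial proteins are made in the cytosol and enter the organelle unfolded. In the matrix, the Hsp70 protein mortalin (HSPA9) pulls them in. Mortalin also folds them, with a J protein (DNAJA3) and a nucleotide exchange factor (GRPEL1). The chaperonin HSPD1 with its lid HSPE1 encloses proteins that need a chamber to fold. TRAP1 is the mitochondrial Hsp90. LONP1 and the ClpXP protease, in which the CLPX ring unfolds substrates for the CLPP peptidase, degrade damaged or unassembled matrix proteins, whereas HTRA2 is a serine protease of the intermembrane space that also binds inhibitor of apoptosis proteins once released to the cytosol. HSPD1, HSPE1, HSPA9, LONP1 and CLPP are commonly used as readouts of the mitochondrial unfolded protein response.

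In shUBXN1 cells, 8 of the 10 genes fell and 2 rose. HSPD1 fell the most, to 0.506 of its shCon level, followed by DNAJA3 (0.571) and CLPP (0.584). LONP1, HSPE1, TRAP1, GRPEL1 and HSPA9 fell to between 0.663 and 0.782 of theirs. HTRA2 rose 2.33-fold and CLPX 1.28-fold. Each of the 10 passed an adjusted p under 0.05 (quasi-likelihood test of edgeR, Benjamini-Hochberg adjustment over all genes tested), where 56.2% of all genes tested did, 28.0% as higher and 28.2% as lower. The CPM of shCon and shUBXN1 did not overlap for any of the 10, which also held for 78.0% of the genes tested. At a fold change of 2 with an unadjusted p under 0.05, the thresholds of the study's methods, only HTRA2 was called, against 17.9% of the genes tested. At a fold of 1.5, HSPD1, DNAJA3, CLPP, LONP1 and HTRA2 were called, against 33.4% of the genes tested. The median log2 fold change of the 10 was -0.54, and that of all genes tested was 0.016.

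**Figure D1:**
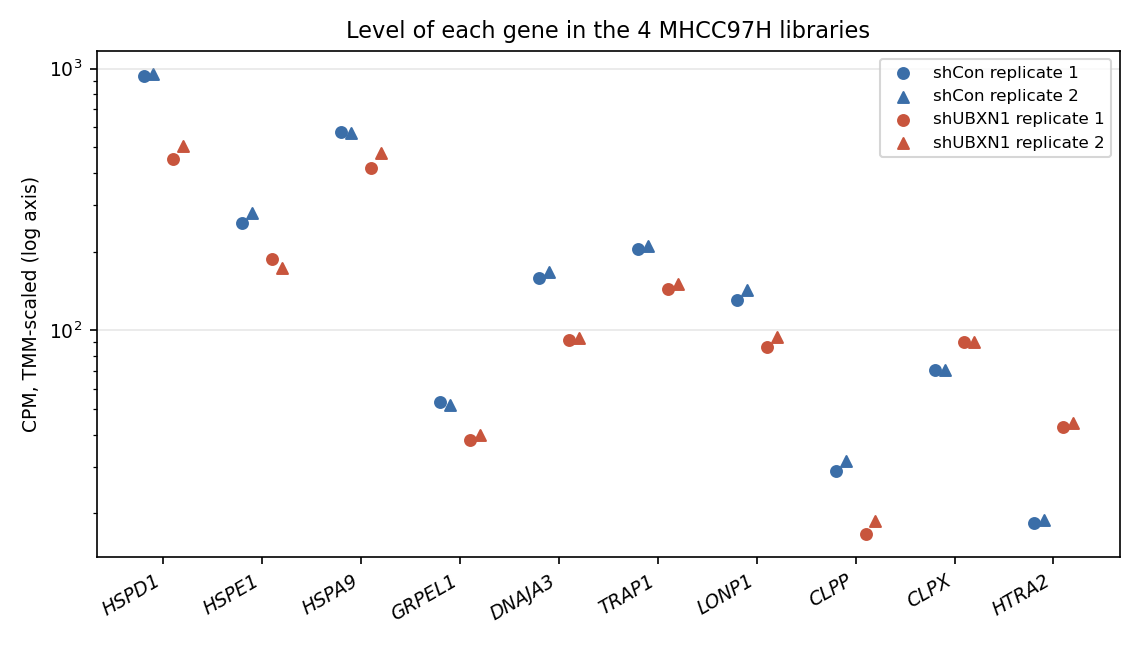
CPM (TMM-scaled, log axis) of each of the 10 genes in the shCon (blue) and shUBXN1 (red) libraries, with circles for replicate 1 and triangles for replicate 2. For 8 genes both red points lie below both blue points, and for CLPX and HTRA2 they lie above.

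HSPD1 and HSPE1 encode the chaperonin and its lid and overlap on chromosome 2 of GRCh38, on opposite strands, with HSPE1 inside the annotated span of HSPD1 (HSPD1 from 197486584 to 197516737 on the minus strand, HSPE1 from 197500140 to 197503449 on the plus strand). One RefSeq start site of HSPD1 (197500274) lies 105 bases from that of HSPE1 (197500379), and transcription runs away from the stretch between them. The RefSeq promoter windows of these start sites, each 300 bases long and lying mostly upstream, share 204 bases. The HSPE1 window (GRCh38.p14, chr2:197500129-197500428, plus strand) is shown because annotated start sites of both genes lie in or beside it and both fell, with the E-box letters CACGTG in capitals.

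HSPE1: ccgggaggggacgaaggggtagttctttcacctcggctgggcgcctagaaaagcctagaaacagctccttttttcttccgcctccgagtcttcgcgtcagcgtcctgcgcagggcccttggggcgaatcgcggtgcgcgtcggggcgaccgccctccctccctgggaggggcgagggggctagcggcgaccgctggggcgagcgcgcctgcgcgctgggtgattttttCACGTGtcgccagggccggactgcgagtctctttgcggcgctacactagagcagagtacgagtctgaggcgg

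These letters lie 22 bases before the start site of HSPE1, at 197500357 to 197500362, and the same bases lie 88 bases before that start site of HSPD1. Another RefSeq start site of HSPD1 (197499840) has a window at chr2:197499791-197500090 of GRCh38.p14, here on the minus strand. It is shown because its capitals are 3 overlapping matches to the inverted repeats of the heat shock element (TTCNNGAA and GAANNTTC).

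HSPD1: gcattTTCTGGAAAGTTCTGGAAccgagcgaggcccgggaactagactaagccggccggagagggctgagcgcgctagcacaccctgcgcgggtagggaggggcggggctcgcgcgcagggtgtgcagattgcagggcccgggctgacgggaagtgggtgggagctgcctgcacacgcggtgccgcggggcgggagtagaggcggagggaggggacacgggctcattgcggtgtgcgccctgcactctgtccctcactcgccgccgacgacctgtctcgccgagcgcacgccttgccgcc

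HSPD1 (ENSG00000144381) was at 935 and 955 CPM in shCon and at 451 and 505 CPM in shUBXN1. Both shUBXN1 libraries stood far below both shCon libraries. The log2 fold change was -0.98 (95% interval -1.16 to -0.80, adjusted p = 2.49e-07, edgeR's quasi-likelihood test), and without shUBXN1 replicate 2 it was -1.08, which passed the fold of 2. HSPE1 (ENSG00000115541) was at 256 and 281 CPM in shCon and at 187 and 174 CPM in shUBXN1. The fall of HSPE1 was smaller, with a log2 fold change of -0.57 (interval -0.74 to -0.41, adjusted p = 2.40e-05 from the same test). The summed rows of 18 HSPD1 pseudogenes held 0.0423% to 0.125% of the HSPD1 count of a library, and those of 26 HSPE1 pseudogenes 0.0439% to 0.123% of the HSPE1 count. HSPD1 and HSPE1 share 135 exon bases on opposite strands, which is 1.77% of the HSPD1 and 7.41% of the HSPE1 exon bases. HSPD1 had 11161 to 24918 counts in the 4 libraries, and the part of this overlap in the HSPE1 values was not tested. The readthrough gene HSPE1-MOB4, which covers 10.5% of the HSPE1 exon bases on the same strand, rose from 34.7 and 59.8 counts to 95.6 and 110 counts (log2 fold change 1.16, adjusted p = 0.00599, edgeR), beside 4071 to 6832 counts for HSPE1.

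The matrix Hsp70 system fell in all of its 3 listed parts, with the J protein falling the most. HSPA9 (ENSG00000113013, chromosome 5, 138553756 to 138575675) encodes mortalin, the Hsp70 itself. It was at 573 and 567 CPM in shCon and at 417 and 475 CPM in shUBXN1. The shUBXN1 libraries differed from each other by more than the shCon libraries did, but both were lower. The log2 fold change was -0.35 (interval -0.53 to -0.18, adjusted p = 0.00232, edgeR), the smallest fall of the 8 genes, and without shCon replicate 2 it no longer passed (-0.38, adjusted p = 0.0568). With each library left out in turn it ranged from -0.47 to -0.27. The RefSeq window of HSPA9 (GRCh38.p14, chr5:138575352-138575651, minus strand) is shown because it alone among the windows of the 10 genes held both an E-box and a heat shock repeat (TTCNNGAA), in capitals near the start site.

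HSPA9: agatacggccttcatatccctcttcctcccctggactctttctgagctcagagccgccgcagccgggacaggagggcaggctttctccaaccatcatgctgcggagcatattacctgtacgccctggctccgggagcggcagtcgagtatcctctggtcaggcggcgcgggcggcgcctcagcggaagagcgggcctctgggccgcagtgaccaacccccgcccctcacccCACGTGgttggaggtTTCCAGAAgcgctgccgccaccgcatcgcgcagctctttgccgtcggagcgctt

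DNAJA3 (ENSG00000103423, chromosome 16, 4425805 to 4456775), which encodes the J protein that stimulates the ATPase of mortalin, was at 159 and 167 CPM in shCon and at 92.1 and 93.8 CPM in shUBXN1. Replicates lay close together in both groups, and the log2 fold change was -0.81 (interval -0.96 to -0.65, adjusted p = 4.07e-07, edgeR). GRPEL1 (ENSG00000109519, chromosome 4, 7058671 to 7068085), the exchange factor that releases ADP from mortalin, was at 53.5 and 51.9 CPM in shCon and at 38.0 and 39.9 CPM in shUBXN1. Its log2 fold change was -0.44 (interval -0.61 to -0.27, adjusted p = 3.00e-04, edgeR). The intervals of HSPA9 and GRPEL1 overlapped, whereas that of DNAJA3 lay below both. TRAP1 (ENSG00000126602, chromosome 16, 3651639 to 3717553), the mitochondrial Hsp90, was at 205 and 211 CPM in shCon and at 144 and 151 CPM in shUBXN1. The log2 fold change of TRAP1 was -0.50 (interval -0.65 to -0.34, adjusted p = 4.60e-05, edgeR). DNASE1 overlaps 28.5% of the TRAP1 exon bases on the other strand and had 273 to 356 counts in the 4 libraries, against 3525 to 5456 for TRAP1.

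Of the matrix proteases, LONP1 and CLPP fell and CLPX rose. LONP1 (ENSG00000196365, chromosome 19, 5691834 to 5720572), an ATP-dependent protease that clears oxidised matrix proteins, was at 130 and 143 CPM in shCon and at 86.6 and 94.2 CPM in shUBXN1. The log2 fold change of LONP1 was -0.59 (interval -0.76 to -0.42, adjusted p = 1.81e-05, edgeR). RPL36, on the other strand, shares 42 exon bases with LONP1 (0.835% of its exon bases) and fell from 3110 and 2996 counts to 1640 and 1486. CLPP (ENSG00000125656, chromosome 19, 6361531 to 6370242), the peptidase of ClpXP, was at 29.2 and 31.7 CPM in shCon and at 16.7 and 18.8 CPM in shUBXN1. Its log2 fold change was -0.78 (interval -0.997 to -0.56, adjusted p = 1.80e-05, edgeR), the widest interval of the 10. CLPX (ENSG00000166855, chromosome 15, 65148219 to 65185342), the unfoldase that feeds CLPP and also activates the first enzyme of heme synthesis, was at 70.6 and 70.3 CPM in shCon and at 89.9 and 90.4 CPM in shUBXN1. Replicates of CLPX differed by less than 1 CPM, and the log2 fold change was 0.36 (interval 0.20 to 0.51, adjusted p = 7.30e-04, edgeR).

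HTRA2 (ENSG00000115317, chromosome 2, 74529596 to 74533350) moved the other way from most of the group and by the largest amount. It was at 18.4 and 18.9 CPM in shCon and at 42.8 and 44.2 CPM in shUBXN1. The log2 fold change was 1.22 (interval 1.03 to 1.41, adjusted p = 5.32e-08, edgeR), and leaving out any of the 4 libraries gave 1.19 to 1.24. On the other strand, LOXL3 overlaps 27.5% of the HTRA2 exon bases and AUP1 4.85%. LOXL3 had 14.3 and 4 counts in shCon and 35.03 and 25.2 in shUBXN1 (log2 fold change 1.79, adjusted p = 0.0119, edgeR), beside 443 to 1058 for HTRA2. AUP1 had 1865 to 2717 counts and fell (log2 fold change -0.38, adjusted p = 4.29e-04, edgeR). Whether strand was used in counting is not given in the sources used here, so reads from overlapping genes on opposite strands cannot be told apart, and their part in these values was not tested. One of its RefSeq windows (GRCh38.p14, chr2:74529683-74529982, plus strand) is shown as that of the gene with the largest rise, and it is all in lower case because it held none of the motifs searched.

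HTRA2: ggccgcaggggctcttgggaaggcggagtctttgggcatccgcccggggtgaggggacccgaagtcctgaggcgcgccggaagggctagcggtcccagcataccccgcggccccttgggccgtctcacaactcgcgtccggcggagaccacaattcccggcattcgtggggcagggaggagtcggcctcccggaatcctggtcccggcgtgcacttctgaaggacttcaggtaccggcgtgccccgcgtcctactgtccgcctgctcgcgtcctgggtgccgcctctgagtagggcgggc

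**Figure D2:**
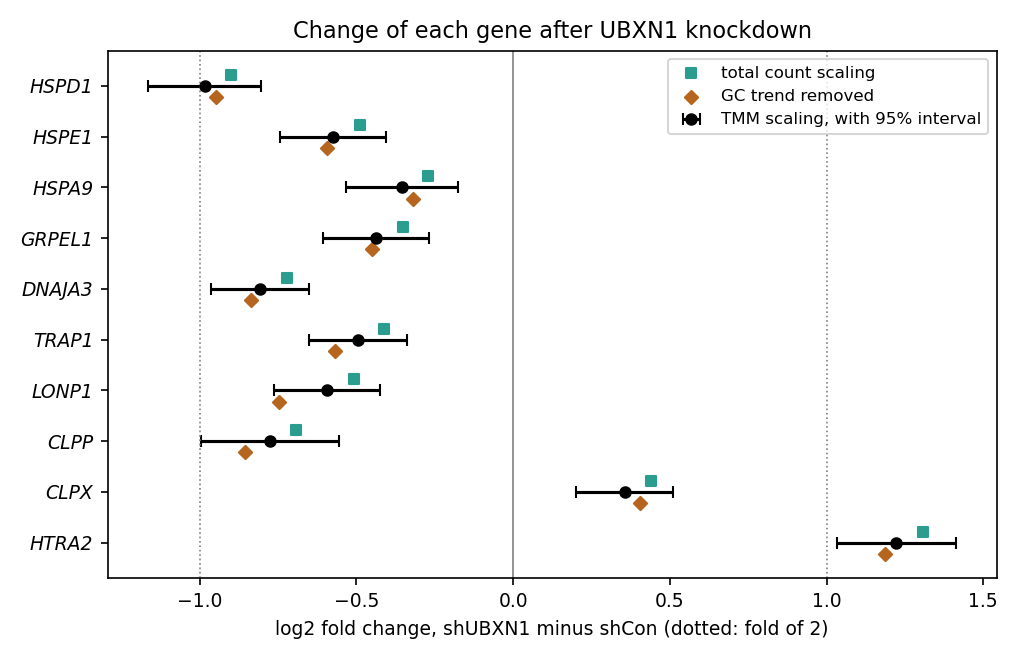
Log2 fold change (shUBXN1 minus shCon) of each of the 10 genes with TMM scaling and its 95% interval (black), with total count scaling (green squares) and after removal of the GC trend of each library (brown diamonds). No interval crosses 0, and every gene lies on the same side of 0 under the 3 treatments.

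The genes with RefSeq windows (8 of the 10, with 11 windows, CLPP and GRPEL1 having none in the table) were searched on both strands for short motifs. The E-box CACGTG, which MYC and related factors bind, occurred in 4 of the 11 windows (HSPD1, HSPE1, HSPA9 and LONP1) and in 7.26% of all 35116 windows. As HSPD1 and HSPE1 share their copy, it is 1 site counted for both genes. The heat shock repeat TTCNNGAA occurred in windows of HSPD1 and HSPA9 and in 7.74% of all windows, and GAANNTTC in a window of HSPD1 and in 6.77% of all, where the HSPD1 matches overlap each other. The cyclic AMP response element TGACGTCA occurred in TRAP1 (1.85% of all windows) and the NRF1 core GCGCATGC in LONP1 and DNAJA3 (3.05% of all windows). TGATGCAA, a core bound by C/EBP and ATF factors, occurred in none of the 11 windows and in 0.866% of all. The windows of CLPX and HTRA2 held none of the letters searched. No motif occurred in more than 7.74% of all windows, and the share of windows without any was not counted. This absence is therefore not read as a difference from the other genes. The motifs were chosen with the changes of these genes known, and matches describe letters and not binding.

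Partner transcripts were then compared within each library, where scaling cancels, as ratios of TPM, which divides counts by the deposited gene length and scales each library to 1000000. CLPX and CLPP transcripts parted the most. The TPM ratio of CLPX to CLPP was 1.24 and 1.14 in the shCon libraries and 2.76 and 2.47 in the shUBXN1 libraries, a 2.19-fold higher ratio. The size of each ratio rests on the deposited lengths, which cancel when the groups are compared. The difference in the log2 ratio was 1.13 with a pooled SD of 0.101, and it was 1.05 to 1.21 with each library left out. HSPD1 per HSPE1 was 0.900 and 0.839 in shCon and 0.596 and 0.716 in shUBXN1, so the ratio was lower in both shUBXN1 libraries, to 0.752 of the shCon ratio (log2 difference -0.41, pooled SD 0.142). Without shUBXN1 replicate 1 this difference was -0.28 and without shUBXN1 replicate 2 it was -0.54. HSPA9 per GRPEL1 was 6.45 and 6.57 in shCon and 6.60 and 7.17 in shUBXN1, a log2 difference of 0.079 with a pooled SD of 0.0611. It was 0.019 without shUBXN1 replicate 2 and 0.14 without shUBXN1 replicate 1. All 3 ratios had p = 0.333 in a two-sided exact permutation test, which is the smallest p that 2 libraries against 2 can give, so none could pass 0.05.

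**Figure D3:**
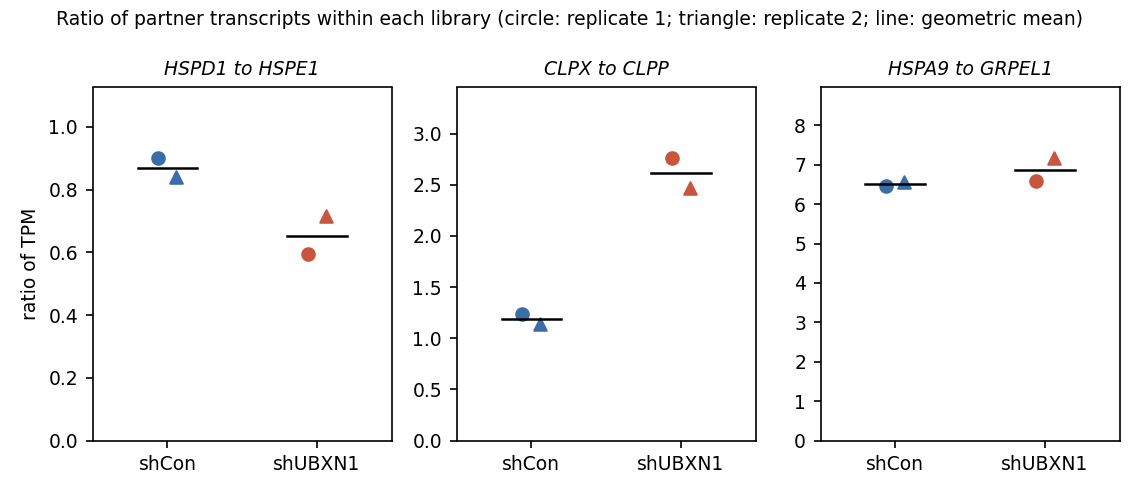
Ratio of TPM of partner genes in each library, from 0 on a linear axis, with circles for replicate 1, triangles for replicate 2 and a line at the geometric mean of each group. The CLPX to CLPP ratio lies at 1.14 to 1.24 in shCon and at 2.47 to 2.76 in shUBXN1, while the HSPA9 to GRPEL1 ratio lies at 6.45 to 7.17 in all 4 libraries.

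The TPM scale allows levels of different genes to be compared, as far as the deposited gene lengths hold. On it the 10 genes spanned a wide range. HSPE1 was the highest in shCon (936 and 997 TPM), above HSPD1 (843 and 836 TPM), and both were above 99% of the genes tested. HSPA9 (265 and 254 TPM), TRAP1 (187 in both), DNAJA3 (120 and 122), LONP1 (85.7 and 91.1), GRPEL1 (41.1 and 38.7), CLPX (30.6 and 29.6), CLPP (24.6 and 26.0) and HTRA2 (20.9 in both) followed in that order. No neighbours in this order overlapped between their shCon libraries. In shUBXN1 the 6 highest kept their order, from HSPE1 (727 and 628 TPM) and HSPD1 (433 and 450 TPM) to LONP1 (60.7 and 61.3 TPM). HTRA2, the lowest in shCon, came next at 51.9 and 49.8 TPM, above CLPX (41.5 and 38.8), GRPEL1 (31.1 and 30.3) and CLPP (15.0 and 15.7). Together the 10 genes took 0.237% and 0.241% of all counts in shCon and 0.165% and 0.169% in shUBXN1.

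Level and base composition moved with the change across all genes. Genes tested were put into 5 groups of expression, of which the highest, with 3373 genes, held HSPD1, HSPE1, HSPA9, LONP1, CLPX, TRAP1 and DNAJA3. In it 44.7% were called lower and 24.6% higher, with a median log2 fold change of -0.13. In the lowest of the 5 groups 7.83% were called lower. Genes were also put into 5 groups of GC content, of which the highest (from 57.6%) had a median log2 change of 0.18, and the lowest group (up to 41.0%) one of -0.070. LONP1 (62.1% GC), CLPP (57.2%) and TRAP1 (56.7%) had the highest GC content of the 10 and fell, and CLPX (40.9%) had the lowest and rose. After removal of the trend on GC in each library, log2 fold changes were -0.75 for LONP1, -0.86 for CLPP, -0.57 for TRAP1, 0.40 for CLPX and 1.19 for HTRA2, and all 10 genes were called in the same direction as before.

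Relatives of these chaperones outside mitochondria also fell. A list of 24 relatives held 23 cytosolic and ER chaperones and HTRA1, a secreted protease related to HTRA2. Of the 24, 20 were called lower, 1 higher and 3 were not called, with a median log2 fold change of -0.55. Of all genes tested 28.2% were called lower, and of those in the highest expression group, where most of the list lies, 44.7% were. The largest falls were those of the Hsp70 genes HSPA1A (-1.24), HSPA1B (-1.19) and HSPA8 (-0.99), where reads of the near-identical HSPA1A and HSPA1B can be divided between them. The gene called higher was HTRA1, which rose from 5.18 and 5.28 CPM in shCon to 21.1 and 26.1 CPM in shUBXN1 (log2 fold change 2.17, standard error 0.142, adjusted p = 1.87e-08, edgeR). Beside HSPA9 at -0.35, the ER Hsp70 gene HSPA5 fell by 0.88 on the log2 scale. Beside TRAP1 at -0.50, the cytosolic HSP90AB1 and HSP90AA1 had log2 fold changes of -0.73 and -0.51, and the ER gene HSP90B1 was at -0.060 (adjusted p = 0.551, edgeR). The J protein genes DNAJA1 and DNAJA2 were at -0.73 and -0.25, beside DNAJA3 at -0.81. HSPA5, the Hsp90 genes, DNAJA1 and DNAJA2 were singled out as relatives after their values were seen.

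Other genes of mitochondrial protein handling were listed for comparison, and their counts stand beside the 28.2% of all genes tested that were called lower. From the lowest to the highest of the 5 expression groups, 7.83%, 18.0%, 31.5%, 38.8% and 44.7% of genes were called lower. The highest group began at a mean of 65.7 CPM, and most of the other chaperones and proteases below lay under that level. Of 17 other mitochondrial chaperones, 8 were called lower, 1 higher and 8 were not called, with a median log2 fold change of -0.15. Total count scaling moved this median to -0.061, that of the 10 genes to -0.45 and that of all genes tested to 0.101. GC correction moved the median of the 17 to -0.25 and left 7 called lower. TIMM13, a chaperone of the intermembrane space, fell from 45.8 and 50.1 CPM to 20.2 and 24.0 CPM (-1.12), DNAJC19, a J protein of the import motor, fell from 24.5 and 25.3 CPM to 12.9 and 13.8 CPM (-0.90), and DNAJC30 was at -0.66. The gene called higher was PPIF, the matrix cyclophilin (0.23), which no longer passed with the GC trend removed (adjusted p = 0.0590, edgeR). Of 15 other mitochondrial proteases, 6 were called lower (5 after GC correction), 2 higher and 7 were not called, with a median of -0.34. The subunits of the processing peptidase that removes presequences, PMPCA and PMPCB, were at -0.47 and -0.53 and the peptidase gene ATP23 was at -0.66. AFG3L2 and SPG7, whose products form the m-AAA protease of the inner membrane, were higher by 0.39 and 0.40 on the log2 scale. Of 16 genes for abundant mitochondrial enzymes and carriers, used as a reference for mitochondrial content, 10 were called lower (9 after GC correction), none higher and 6 were not called, with a median of -0.24 (-0.16 with total count scaling). GLUD1 (-0.66), which encodes glutamate dehydrogenase, and MDH2 (-0.54), which encodes the mitochondrial malate dehydrogenase, were among those that fell. The 6 not called were CS (0.024), TOMM20 (-0.15), VDAC1 (-0.11), SDHA (0.095), ATP5F1A (0.066) and ATP5F1B (-0.018), named after their values were seen. Whether mitochondrial content changed was not tested.

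Factors named in the regulation of these chaperones moved in both directions. Of 9 such genes 8 were tested, of which 4 were called lower, 3 higher and 1 was not called. Beside these counts and those of the targets below stand 28.2% of all genes tested called lower and 28.0% called higher. ATF5 was at 71.7 and 72.4 CPM in shCon and at 43.6 and 50.4 CPM in shUBXN1 (log2 fold change -0.62), and ATF4 was at 197 CPM in both shCon libraries and at 150 and 145 CPM in shUBXN1 (-0.42). The heat shock factor gene HSF2 was at -0.44, and HSF1, named after its value was seen, was at -0.33. CEBPB (0.53) and NFE2L2 (0.23) were among those called higher. After GC correction they were at 0.29 and 0.27 and were still called. Of 12 targets of the integrated stress response 10 were tested, of which 7 were called lower and none higher, with a median of -0.81. PHGDH (-1.67), TRIB3 (-1.63) and CHAC1 (-1.48) fell the most. DDIT3, which encodes CHOP and was also named after its value was seen, was at 39.2 and 37.1 CPM in shCon and at 34.9 and 41.3 CPM in shUBXN1 (log2 fold change -0.0040, adjusted p = 0.975, edgeR).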

How the data were processed

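Paired-end RNA-seq was measured in 4 MHCC97H libraries. The paper's methods name Hisat2 and GRCh38, whereas the submitters' processing notes name GRCh37, HISAT2 2.0.4 and StringTie 1.3.0. The counting tool, the annotation release and the use of strand are not given in the sources used here. The values deposited by the authors are expected counts per gene to 2 decimals, not normalized, with a gene length, and replicates were not pooled. Of 61541 IDs, 99.7% matched a GENCODE v44 symbol, and positions are from that GRCh38 annotation.

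Expected counts were rounded, filtered with filterByExpr, scaled with TMM and tested over all genes with glmQLFit and glmQLFTest in edgeR 4.0.16 (R 4.3.3), without a block, with Benjamini-Hochberg adjustment. Standard errors are the log2 fold change over the square root of F. TPM used the deposited length. The fit was first tested on simulated counts, where it recovered 171 of 200 genes simulated as changed and called 8 others. Far fewer of the 16863 genes were changed there than were called in the data. The error rate of the fit in the data was therefore not tested. Replicates differed beyond counting noise (chi-square per degree of freedom 3.75 in shCon and 8.34 in shUBXN1). Alternatives were DESeq2 1.42.0, limma 3.58.1 on log2(TPM + 1) and log2(TPM + 0.1), total count scaling, other filters, unrounded counts, a GC correction by lowess, a replicate block, a fold of 1.5 and each library left out. Promoter windows are from RefSeq (GRCh38.p14). Members, lists and tests were chosen with earlier results of these data known. Named were all members, UBXN1, up to 3 rises and 3 falls past an adjusted p of 0.05 in each list, and rows that overlap or resemble a member. Of the genes this rule names, 2 are not reported here.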

Additional observations from a re-analysis of the deposited data

How the results depend on the processing

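Across 14 alternatives for each of the 10 genes, all 140 log2 fold changes kept their direction and 138 kept their side of the threshold. The exceptions were both for HSPA9, at -0.30 (adjusted p = 0.0548) with limma on log2(TPM + 0.1) and at -0.38 (adjusted p = 0.0568, edgeR) without shCon replicate 2, and the cause was not tested. With each library left out, 7 to 8 of the 10 genes were called lower and 1 to 2 passed a fold of 2, HSPD1 being added without shUBXN1 replicate 2. A fold of 1.5 called 5 of the 10. Limma on log2(TPM + 0.1) called 3139 genes lower in place of 4751, and the cause was not tested. The log2 difference in the CLPX to CLPP ratio was 1.26 after GC correction, against 1.13. With each library left out it was 1.05 to 1.21. Deviations of libraries with the same replicate number correlated with r = 0.077 across genes, which are not independent. Whether these libraries were paired is not given in the labels, and this correlation cannot decide it. With the replicate number as a block, 5000 genes were higher and 5023 lower, and 2 and 8 of the 10 were, also with GC correction. Only 2 libraries per group limit how well the spread of each gene is known, and no count of the 10 genes was under 414 in any library.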
